A study of Mus musculus with 4 samples.

Results

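The structural myelin proteins described here are 9 genes, Mbp, Mog, Mag, Mobp, Cnp, Cldn11, Mal, Opalin and Ermn, taken by their mouse symbols from the 55471 genes of each count table. Each symbol matched 1 Ensembl identifier, and all 9 genes passed the filter on low counts, so every member was tested. The RNA was pulled down with HA-tagged ribosomes from brain and sequenced in 2 cuprizone and 2 mock libraries. All 4 libraries carry the genotype GFAP-Cre+/- Rpl22HA/wt, in which Cre driven by the GFAP promoter tags the ribosomal protein Rpl22 on 1 allele in the cells where it is active, and all 4 are labelled astrocytes, 3 weeks and batch 1. The series' design text describes male mice aged 8 to 9 weeks, fed chow with 0.2% by weight of cuprizone or, for the matched controls, a normal diet, and corpus callosum dissected at 5, 5.5 and 7 weeks; the 3 weeks of the sample labels is not among these times. The GFAP promoter decides which cells carry the tag, and the labels do not say how many animals stand behind a library.

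Myelin is the membrane sheath that oligodendrocytes wrap around axons in the central nervous system. Its compact part is held together by small proteins between the membrane leaflets, while other proteins span the membrane and form junctions or face the axon or the outside. Some of its mRNAs, Mbp above all, are carried in granules along the processes of the oligodendrocyte and translated at the sheath, whereas membrane-spanning proteins are made on ribosomes bound to the endoplasmic reticulum. Cuprizone is a copper chelator whose feeding kills oligodendrocytes and is used to study loss and repair of myelin. The members therefore fall into 5 membrane-spanning proteins (Mog, Mag, Cldn11, Mal, Opalin) and 4 genes with a cytosolic protein or a transported mRNA (Mbp, Mobp, Cnp, Ermn). The comparison asks whether the pulled-down RNA of these genes differed between the diets, and whether the classes differed from each other.

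The libraries held 21209517 to 23822620 counts, and levels are given in CPM, counts per 1000000 counts of a library. A gene with 0 counts may still lie anywhere under 0.126 to 0.141 CPM, the worth of 3 counts (counting error only). All 11 astrocyte markers were detected in every library, at a summed 0.648% and 0.764% of counts in cuprizone and 1.03% and 1.006% in mock libraries. Gfap stood at 385 and 451 CPM in cuprizone and 963 and 870.4 CPM in mock libraries, and Rpl22 at 42.2 and 27.5 against 40.6 and 40.1 CPM. Genes of other cells were abundant too. The 8 neuronal markers, all detected, took 1.40% and 1.41% of counts in cuprizone and 1.21% and 1.25% in mock libraries, and 12 markers of mature oligodendrocytes that are not members took 0.683% and 0.889% of counts in cuprizone and 0.757% and 0.879% in mock libraries. The 9 microglial markers were near 0, with 0.00041% to 0.00055% in cuprizone against 0.00182% to 0.00315% in mock libraries and Itgam at 0 throughout. Markers of endothelial, mural, ependymal and Schwann cells took at most 0.00471% in any library. The members are defining genes of oligodendrocytes, not of the labelled astrocytes, and how their RNA came to be in the pull-down was not tested.

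Of all counts, the members made up 0.586% and 0.785% after cuprizone and 0.792% and 0.917% after mock treatment. Both cuprizone libraries thus lay below both mock libraries, the second by little. Without Mbp, left out after the values were seen, the other 8 members took 0.408% and 0.535% in cuprizone and 0.396% and 0.461% in mock libraries. Their mean share was then the higher one in cuprizone (0.471% ± 0.0901 against 0.428% ± 0.0459; SD, n = 2 each), with overlapping groups, so the lower total did not hold without Mbp. Mbp was not alone in being lower. The 5 membrane-spanning members took 0.166% and 0.173% in cuprizone and 0.178% and 0.215% in mock libraries, without overlap. Mobp, Cnp and Ermn together took 0.242% and 0.362% against 0.218% and 0.246%, with overlap. In bulk samples such as these, fewer cells of a type and less RNA per cell cannot be told apart. The summed astrocyte markers were lower and the summed neuronal markers higher in both cuprizone libraries (above), but not every marker followed its sum. Of all tested genes 18.9% were lower and 25.7% higher in both cuprizone libraries. Of the 11 astrocyte markers 5 were lower in both cuprizone libraries and 6 overlapped. edgeR called 0 of these 11 after adjustment, DESeq2 4 and limma-voom 2, all lower in cuprizone. Of the 8 neuronal markers 5 were higher, 2 lower (Syt1 and Slc17a7, named after their values were seen) and 1 overlapped, and Snap25 alone, at 9900 and 10008 against 8292 and 8297 CPM, made up most of the neuronal sum. Of these 8, edgeR and limma-voom called 0, and DESeq2 called 1 as higher and 2 as lower. Over all tested genes DESeq2 called 1.68% as higher and 2.88% as lower, and limma-voom called 0.297%. The part of these cells in the members' shares was not tested.

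**Figure D1:**
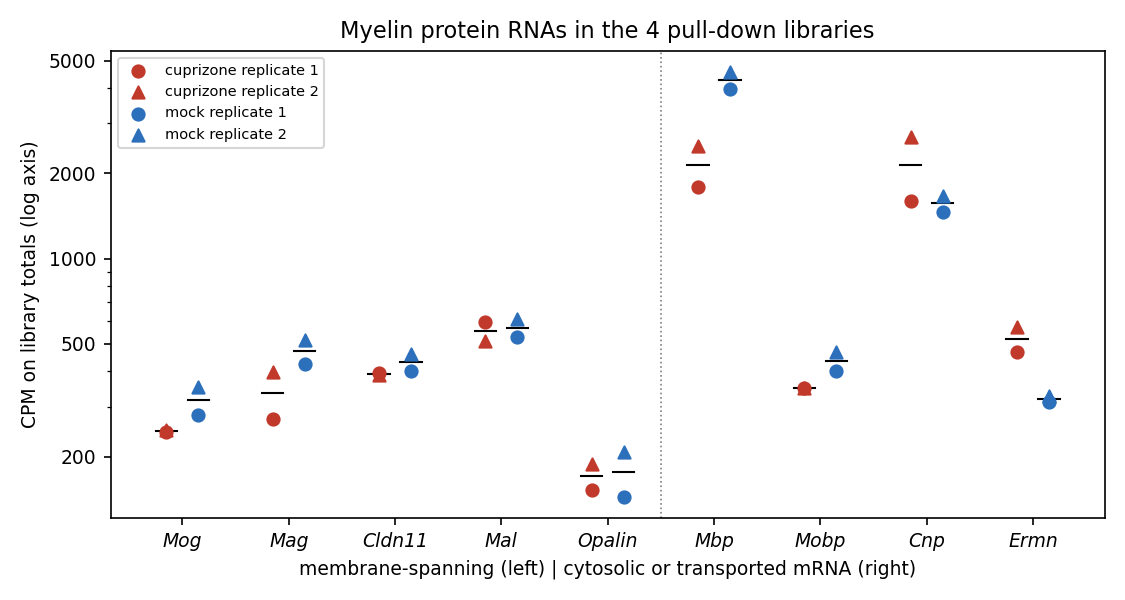
Level of each member in CPM on library totals (log axis) in the 4 libraries, with cuprizone in red, mock in blue, symbols for replicates and a black bar for each group's mean. Mbp is lower and Ermn higher in both cuprizone libraries, and for Cnp cuprizone replicate 2 stands alone at 2693 CPM.

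No member passed the edgeR quasi-likelihood test after Benjamini-Hochberg adjustment over all 15816 tested genes, where 0.0822% of genes passed at 0.05 (0.0316% higher, 0.0506% lower in cuprizone). An unadjusted p under 0.05 was found for 5 of the 9 members, 4 lower and 1 higher in cuprizone, against 12.8% of all tested genes (7.04% lower, 5.73% higher). That count was 2 with library-total scaling, 3 without cuprizone replicate 1 or cuprizone replicate 2, and 2 without mock replicate 2. In CPM the diets did not overlap for 6 members, against 44.6% of tested genes: 5 had both cuprizone values under both mock values (18.9% of genes) and 1 had them above (25.7%). The median log2 fold of cuprizone over mock was -0.21 over the 9 members and 0.00056 over all tested genes, with 7 negative and 2 positive member folds. With 1 library left out the members' median ran from -0.36 to -0.0865.

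Upstream sequence is shown for Ermn and Cnp, the members with positive folds, and for Mag, the lowest fold among the 8 members whose promoters were read. Mbp, which had a lower fold, was left out of this reading. Promoters came from a RefSeq table (GRCm38.p6, the build of the counts). Capitals mark the letters ACAAAG or ACAATG, cores bound by SOX factors such as SOX10, and CTGGCAC or CTGGTAC, bound by the oligodendrocyte factor MYRF, on either strand. Each stretch runs from 250 to 51 bases before the annotated start.
Ermn (chr2:58052915-58053114, minus strand): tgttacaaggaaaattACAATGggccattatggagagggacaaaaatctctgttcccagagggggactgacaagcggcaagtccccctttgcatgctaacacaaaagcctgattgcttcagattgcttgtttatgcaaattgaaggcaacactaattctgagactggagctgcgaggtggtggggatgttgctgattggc
Cnp (chr11:100574689-100574888, plus strand): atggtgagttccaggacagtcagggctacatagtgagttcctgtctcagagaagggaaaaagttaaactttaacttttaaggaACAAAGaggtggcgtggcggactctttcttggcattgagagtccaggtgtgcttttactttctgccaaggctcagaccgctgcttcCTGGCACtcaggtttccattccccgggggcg
Mag (chr7:30914914-30915113, minus strand): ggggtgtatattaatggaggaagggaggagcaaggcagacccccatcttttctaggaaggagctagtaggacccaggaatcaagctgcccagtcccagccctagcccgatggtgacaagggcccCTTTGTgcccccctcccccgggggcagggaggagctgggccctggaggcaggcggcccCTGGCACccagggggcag
Of the 8 windows, 4 hold ACAAAG (Cnp, Mag, Mobp, Opalin), a string found in 13.6% of all 32817 windows of this length, and Ermn holds ACAATG (8.94% of windows). Cnp and Mag both hold CTGGCAC (3.34% of windows), and Mog holds CTGGTAC (1.54%). A match describes letters only, not binding.

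Mbp, the myelin basic protein that binds the inner membrane leaflets of compact myelin to each other, had the highest level per length of the members in the mock libraries. Its level was 1784 and 2502 CPM after cuprizone, against 3964 and 4557 CPM after mock treatment. Both cuprizone values lay well below both mock values. The means were 2143 CPM ± 507 and 4261 CPM ± 419 (SD, n = 2 each), and the log2 fold was -1.06 (SE 0.19, 95% interval -1.51 to -0.60). The edgeR adjusted p was 0.133, so the difference did not pass over all genes. Mbp passed in 3 of 13 alternatives, at adjusted p = 1.77e-06 with DESeq2 (which called 4.55% of genes, 2.88% as lower), 0.0169 without a filter on low counts (0.769% called, 0.588% as lower) and 0.0298 without cuprizone replicate 2 (0.153% called, 0.1% as lower; log2 fold -1.34), and over all alternatives its adjusted p ran from 1.77e-06 to 0.376. The Mbp gene lies on chromosome 18 at 82475146 to 82585637 (GRCm38, plus strand), with 16 annotated transcripts. These include the longer Golli forms known from this locus, which counts of whole genes do not separate from the classic forms.

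Mobp, another small basic protein of the cytoplasmic side of compact myelin whose mRNA is also transported, had a smaller distance in the same direction. It stood at 349 and 350.5 CPM after cuprizone and at 402 and 466 CPM after mock treatment. The cuprizone values were nearly equal and both lay under the lower mock value. The log2 fold was -0.38 (SE 0.14, 95% interval -0.73 to -0.03) with an edgeR adjusted p of 0.352. Mobp is on chromosome 9 at 120149707 to 120181484 (GRCm38, plus strand).

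Ermn encodes ermin, an actin-binding protein of the oligodendrocyte cytoskeleton that appears late in maturation, and it was the member with the highest fold. It stood at 469 and 573 CPM after cuprizone and at 313 and 328 CPM after mock treatment. Every cuprizone value exceeded every mock value. The means were 521 CPM ± 73.8 and 320.1 CPM ± 10.6 (SD, n = 2 each), and the log2 fold was 0.63 (SE 0.16, 95% interval 0.25 to 1.02). With an edgeR adjusted p of 0.217 Ermn did not pass; it passed in 1 of 13 alternatives, DESeq2, at adjusted p = 0.0097 (1.68% of genes called as higher), in a range up to 0.609. Its fold stayed positive in all of them, from 0.47 to 0.78. Ermn is on chromosome 2 at 58045113 to 58052864 (minus strand) and shares 237 bases of exon with Galnt5 on the other strand, which had between 0 and 42 counts in a library.

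Cnp encodes the cyclic nucleotide phosphodiesterase that keeps cytoplasmic channels open in non-compact myelin. It stood at 1603 and 2693 CPM after cuprizone and at 1465 and 1665 CPM after mock treatment. Cuprizone replicate 2 was high, while cuprizone replicate 1 lay between the mock values, so the groups overlapped. The log2 fold was 0.39 (SE 0.25, 95% interval -0.21 to 0.99) with an edgeR adjusted p of 0.598, and without cuprizone replicate 2 it was -0.0462. Cnp (chromosome 11, 100574904 to 100591729, plus strand) shares 154 bases of exon with Dnajc7 on the other strand, whose 4593 to 5184 counts were well below the 32393 to 64162 counts of Cnp; the strand setting of the counting is not given in the sources used here.

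Mag, a sialic acid-binding adhesion protein on the membrane facing the axon, had the lowest fold of the membrane-spanning members. It stood at 271 and 398 CPM after cuprizone and at 425 and 517 CPM after mock treatment. The groups did not overlap, but cuprizone replicate 2 came close to mock replicate 1. The log2 fold was -0.56 (SE 0.22, 95% interval -1.10 to -0.03) with an edgeR adjusted p of 0.369; it was -0.31 without cuprizone replicate 1 and -0.88 without cuprizone replicate 2. Mag is on chromosome 7 at 30899176 to 30914873 (minus strand).

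Mog, an immunoglobulin-domain protein of the outermost lamella, stood at 243 and 249 CPM after cuprizone and at 280.3 and 353 CPM after mock treatment. The cuprizone values were close together and the mock values spread more widely, without overlap. The log2 fold was -0.43 (SE 0.17, 95% interval -0.84 to -0.03) with an edgeR adjusted p of 0.358, and without mock replicate 2 it was -0.23. Mog is on chromosome 17 at 37010743 to 37023398 (minus strand).

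Cldn11, the claudin that forms the tight junction strands of myelin, stood at 393 and 388 CPM after cuprizone and at 401 and 459.7 CPM after mock treatment. Both cuprizone libraries and mock replicate 1 were close together and mock replicate 2 was the highest. The log2 fold was -0.21 (SE 0.14, 95% interval -0.55 to 0.13), with an edgeR adjusted p of 0.620. Cldn11 is on chromosome 3 at 31149920 to 31164324 (plus strand).

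Mal, a proteolipid of membrane rafts that serves vesicle transport, stood at 596 and 511 CPM after cuprizone and at 529 and 613 CPM after mock treatment. Opalin, a glycoprotein of oligodendrocyte membranes in the central nervous system, stood at 153 and 188 CPM in the cuprizone and at 144 and 208 CPM in the mock libraries. In both genes the groups overlapped. The log2 folds were -0.11 (SE 0.15, 95% interval -0.48 to 0.25) for Mal and -0.12 (SE 0.23, 95% interval -0.67 to 0.43) for Opalin, with edgeR adjusted p of 0.846 and 0.917. For these genes the intervals leave room for differences in either direction. Mal is on chromosome 2 at 127633226 to 127656695 and Opalin on chromosome 19 at 41061710 to 41077113 (both minus strand).

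**Figure D2:**
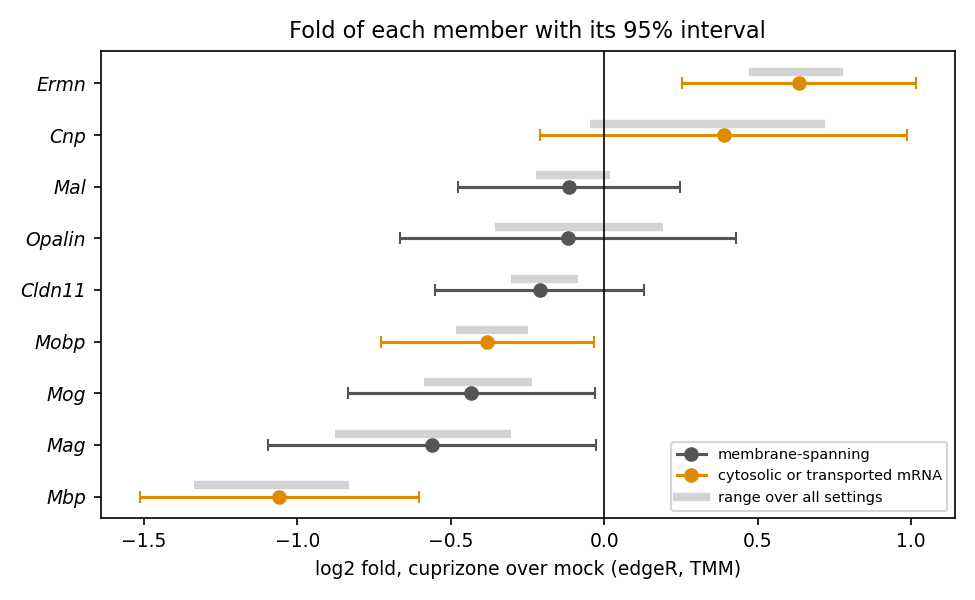
Log2 fold of cuprizone over mock for each member from edgeR (points, with 95% intervals), coloured by class, and the range of the fold over the reported fit and 13 alternatives (grey bars). The folds of the cytosolic or transported-mRNA class, from -1.06 for Mbp to 0.63 for Ermn, lie on both sides of the membrane-spanning folds of -0.56 to -0.11.

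The membrane-spanning members had a narrow range of folds, all 5 negative, with a median of -0.21. The 4 cytosolic or transported-mRNA members had a median of 0.0044, made of 2 negative and 2 positive folds. The difference of the class medians was -0.21, and the SD of that difference between replicates was 0.18. Within a library, the mean log2 CPM of the membrane-spanning members minus that of the other class was -1.47 and -1.73 after cuprizone and -1.51 and -1.36 after mock treatment. On this measure the diets overlapped. Inside the cytosolic class, the folds of Mbp and Mobp were negative and those of Cnp and Ermn were positive. With Mbp left out of its class, an alternative chosen after the values were seen, the same difference was -1.10 and -1.32 in cuprizone and -0.81 and -0.65 in mock libraries, without overlap.

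Ratios between members within a library do not depend on how libraries are scaled, and they describe the make-up of the members' RNA. Of the members' summed counts, Mbp accounted for 30.4% and 31.9% after cuprizone and for 50.03% and 49.7% after mock treatment. Cnp accounted for 27.3% and 34.3% against 18.5% and 18.2%, and Ermn for 8.00% and 7.30% against 3.95% and 3.57%. Since the shares add up to the whole, a smaller share of Mbp by itself raises those of the other members, and the CPM of Cnp overlapped between the diets. Of Mbp there were 3.80 and 4.36 counts for each count of Ermn in cuprizone, and 12.7 and 13.9 in mock libraries. These pairs were picked after the values were seen and are descriptions without a test.

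**Figure D3:**
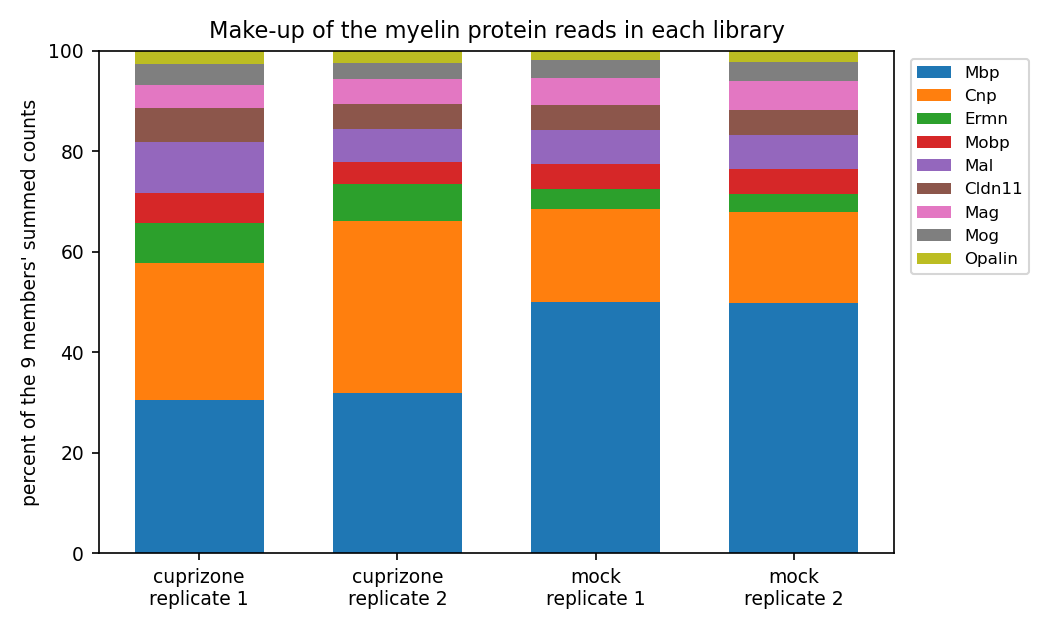
Share of each member in the summed counts of the 9 members, in percent, in each library. Mbp fills 50.03% and 49.7% of the mock bars and 30.4% and 31.9% of the cuprizone bars, where the shares of the other members, Cnp and Ermn among them, sum to correspondingly more.

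Set against the mean log2 CPM of the other 8 members, Mbp stood at 2.17 and 2.44 in cuprizone and 3.30 and 3.25 in mock libraries. Ermn stood at -0.0012 and 0.05 against -0.82 and -1.02, and Cnp at 1.99 and 2.56 against 1.69 and 1.62. On this scale Mag (-0.89 and -0.54 against -0.32 and -0.28) was also lower in both cuprizone libraries. Mog and Mobp were lower by less, with differences of -0.24 and -0.18 between the group means, and Cldn11, Mal and Opalin overlapped. For every member but Mbp the reference includes Mbp, so a lower Mbp by itself raises that member on this scale. The CPM of Cnp overlapped between the diets.

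**Figure D4:**
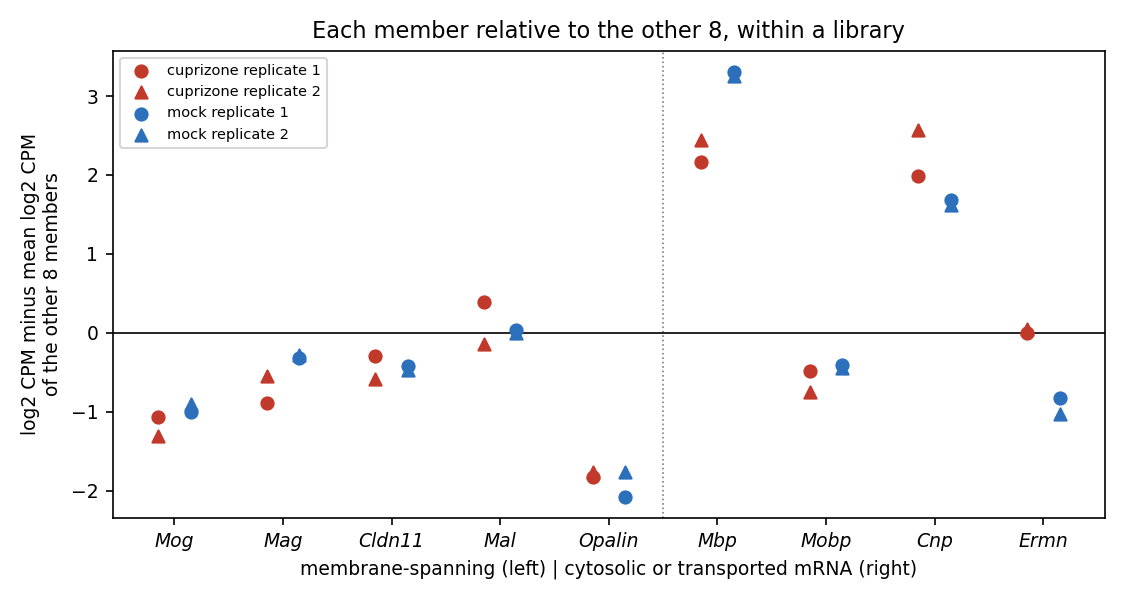
Log2 CPM of each member minus the mean log2 CPM of the other 8 members of the same library, with cuprizone in red and mock in blue. Mbp, Cnp and Ermn show the largest mean differences between the diets, of -0.97, 0.62 and 0.94. A lower Mbp by itself raises the other members on this scale.

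Levels can be compared between genes only per length, here as CPM per kilobase of the union of annotated exons, from 1704 bases for Mog to 8469 for Mbp. In the mock libraries Mbp came first (503 CPM per kb ± 49.5), followed by Cnp (430.03 ± 38.8), Cldn11 (230.2 ± 22.02), Mal (205 ± 21.3), Mog (186 ± 30.2), Mag (116 ± 16.0), Ermn (88.1 ± 2.91), Mobp (63.4 ± 6.65) and Opalin (59.8 ± 15.2; SD, n = 2 each). The values of Cldn11 and Mal, of Mal and Mog, and of Mobp and Opalin overlapped. In the cuprizone libraries Cnp came first (590.3 ± 212), then by its mean Mbp (253 ± 59.9). The values of Mbp overlapped with those of Mal: in cuprizone replicate 1 they were 210.7 and 214.4 CPM per kb. Ermn (143 ± 20.3) stood ahead of Mag (82.2 ± 22.1) and overlapped with Mog (144 ± 2.41). The place of Mbp depends on its exon length, which spans all 16 transcripts. In counts, which are not corrected for length, Mbp over Cnp was 1.11 and 0.929 in the cuprizone and 2.71 and 2.74 in the mock libraries. In cuprizone the counts of these 2 genes were thus nearly equal, though not their levels per length.

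Other genes of myelin and of its control were read from 4 lists. Of 20 other myelin membrane proteins, edgeR called 0 after adjustment, 5 had an unadjusted p under 0.05, all of them lower in cuprizone (7.04% of all tested genes), and the median log2 fold was -0.21 with 12 of 20 negative. Gpm6b, a membrane glycoprotein that astrocytes and neurons also express, stood at 800.3 and 807 against 1642 and 1624 CPM after cuprizone and mock treatment, a log2 fold of -1.09 (SE 0.12). Its edgeR adjusted p was 0.0629. DESeq2 called Gpm6b, Nfasc (log2 fold -1.005) and Lpar1 (-0.91), where it called 2.88% of all genes as lower, and limma-voom called Gpm6b (0.297% of genes called); Nfasc and Lpar1 were named after their values were seen.

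Of 17 other cytosolic and cytoskeletal proteins of myelin, edgeR called 0 after adjustment, 5 had an unadjusted p under 0.05 with a positive and 3 with a negative fold (5.73% and 7.04% of all tested genes), and the median log2 fold was 0.24. The most abundant, the tubulin Tubb4a, stood at 2290.2 and 4191 CPM in cuprizone and 2155 and 2555 CPM in mock libraries, with cuprizone replicate 2 high as in Cnp. Sept7, a septin of the cytoskeleton, had a log2 fold of 0.24 (SE 0.13). DESeq2 called Anln (0.75) as higher and Plekhb1 (-0.62) and Bcas1 (-1.03) as lower, against 1.68% and 2.88% of all genes, and limma-voom called 0; these were named after their values were seen. Sept2 is held by a pair of gene models with the same symbol and had at most 35 counts, so its fold is uncertain.

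Genes known to carry Mbp mRNA or control its translation were not called either: edgeR, DESeq2 and limma-voom called 0 of 10, 1 had an unadjusted p under 0.05 with a positive fold (5.73% of all tested genes), and the median log2 fold was 0.20. The RNA-binding proteins Qk and Hnrnpk had log2 folds of -0.13 (SE 0.16) and 0.34 (SE 0.13). The 7 oligodendrocyte transcription factors had positive folds in the reported fit, as had 7918 of all 15816 genes, with a median of 0.56. Over the alternatives the lowest folds of Olig1 (-0.43), Tcf7l2 (-0.17) and Zfp488 (-0.18, named after its values were seen) were negative. By edgeR, DESeq2 and limma-voom 0 were called, and 2 had an unadjusted p under 0.05 with a positive fold (5.73% of all tested genes). Olig1 stood at 236.5 and 404 CPM in cuprizone and 224 and 378 CPM in mock libraries, with overlap. Its log2 fold was 0.02 (SE 0.33), and that of Tcf7l2 was 0.03 (SE 0.21). In CPM 4 of the 7 were higher in both cuprizone libraries, against 25.7% of all tested genes. These were Myrf (log2 fold 0.76), Sox10 (0.56), Olig2 (0.90) and Nkx6-2 (0.85), named after their values were seen. Their lowest folds over the alternatives were 0.44, 0.42, 0.43 and 0.44.

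**Figure D5:**
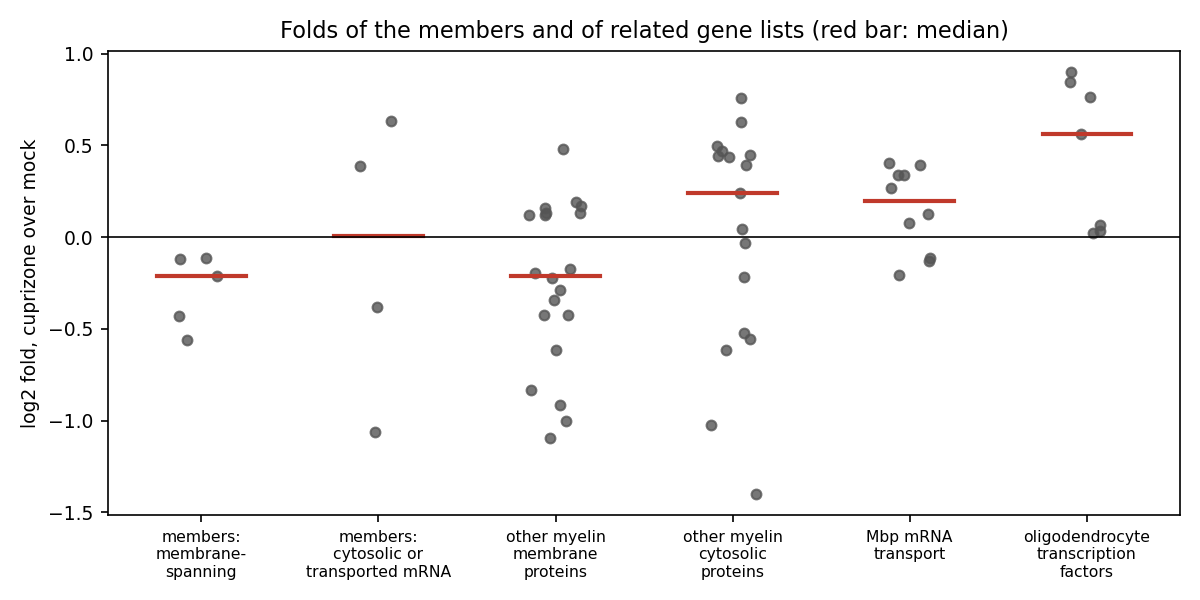
Log2 folds of cuprizone over mock for the members by class and for 4 lists of related genes; each point is a gene and each red bar a median, and sideways spread is only for legibility. Medians run from -0.21 for both membrane sets to 0.56 for the transcription factors, and no gene shown passed edgeR over all genes.

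The members' mean pattern over the 4 libraries had log2 deviations of -0.19 and 0.05 in cuprizone and -0.05 and 0.19 in mock libraries. In both diets this mean was higher in replicate 2 than in replicate 1. Among 7365 other genes with a mean of at least 20 CPM, genes among the nearest 5 to that mean pattern, by root mean square difference over the 4 libraries, were Acbd6 (0.0159), Cplx2 (0.0211), Metrn (0.0247) and Grina (0.0332). The distances of the single members from their own mean ran from 0.0945 for Cldn11 to 0.425 for Ermn and 0.441 for Mbp. The nearest 5 were picked for small distance among 7365 genes, so setting the members against them does not show how alike the members are. Cldn11 was thus the member most like the mean pattern, and Mbp and Ermn the least like it.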

How the data were processed

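The authors deposited 1 table of raw counts per gene for each of the 4 libraries; the submitters' processing notes name STAR 2.5.4b, featureCounts 1.6.0, FastQC 0.11.9 and the build GRCm38. The annotation release, strand setting and treatment of multi-mapped reads were not found in those notes or the labels. Coordinates and exon lengths come from GENCODE M21 on the same build. Levels are CPM on library totals. Folds and p-values come from edgeR 4.0.16 in R 4.3.3 on all genes passing filterByExpr (TMM factors of 0.974 to 1.03, glmQLFit, robust, legacy estimation, glmQLFTest, 2-sided, Benjamini-Hochberg over all tested genes, threshold 0.05); standard errors of log2 folds were taken as |log2 fold| over the root of F. Alternatives used DESeq2 1.42.0, limma 3.58.1 (voom), other scalings, filters and dispersion estimates, the replicate block, and leaving out each library. The fitting code was tested on simulated data. Log2 CPM used a prior count of 0.5. Members and lists were chosen with earlier results of these data known. Named were all members, Gfap and Rpl22, in each list up to 3 called genes or else its 2 most abundant, and the 5 nearest patterns; 1 gene that this rule names is not reported here. No pair of libraries differed by as little as sampling noise (chi-square per degree of freedom of 35.1 or more), and the labels call them biological replicates without naming animals, so the p-values speak of differences among these libraries only, which may be technical.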

Additional observations from a re-analysis of the deposited data

How the results depend on the processing

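The number of genes called over all genes was 13 and depended on the setting: 191 without a low-count filter, 68 at a mean CPM of at least 1, 720 with DESeq2, 47 with limma-voom, 57 with bias-adjusted dispersion estimation, and 5 to 123 with 1 library left out. Members called were 0, but 1 without a filter (Mbp), 2 with DESeq2 (Mbp and Ermn) and 0 to 1 with 1 library left out. RLE, upper-quartile and library-total scaling called 0 members and left 7 folds negative and 2 positive; library totals moved the median of all genes to 0.071. With 1 library left out, the median log2 fold ran from -0.36 to -0.0865 over the members and, likewise, -0.36 to -0.0865 over the membrane-spanning members, from -0.22 to 0.17 over the other class, and from -0.40 to -0.0669 for the difference of the class medians; the members' share of counts, 0.169 percentage points lower in cuprizone, differed by -0.268 to -0.0692 points. In these runs the sign turned for Cnp (-0.0462 to 0.72), Mal (-0.22 to 0.0176) and Opalin (-0.36 to 0.19). Counted outside the 100 most abundant genes, the shares were 0.718% and 0.963% against 0.992% and 1.14%. Replicate numbers were shared between the groups, but replicate 1 deviations did not go together (r = -0.02 across tested genes). The numbers were therefore taken to name samples only, though with 2 libraries a group this check cannot exclude a pairing. It also covers all tested genes and not the members alone. The members' mean log2 CPM was higher in replicate 2 of both diets. It was 8.87 and 9.12 in cuprizone replicates 1 and 2, and 9.02 and 9.26 in mock replicates 1 and 2. Whether this reflects a pairing was not tested. With the replicate block 10 genes and 0 members were called, and Mbp had an adjusted p of 0.096 by edgeR. With 2 libraries a group, a lone library in a run is assumed to vary like the others.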

Other observations

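Cuprizone replicate 2 stood above cuprizone replicate 1 in some genes of several kinds and cell types, cytosolic, membrane and neuronal ones among them. Other markers of the same cell types went the other way. In cuprizone replicates 1 and 2 the neuronal Syt1 had 1075 and 904 CPM and Slc17a7 147 and 107 CPM. The astrocyte genes Slc1a2 and Gjb6 had 613 and 433 CPM and 134 and 85.9 CPM. Sept4, a septin of myelin, had 557 and 1118 CPM in the cuprizone libraries and 556 and 578 CPM in the mock libraries, and Car2, a carbonic anhydrase of oligodendrocytes, 1249 and 1717 against 1039 and 1037 CPM. The connexin Gjb1 had 39.6 and 75.4 CPM in the cuprizone libraries (and 35.8 and 65.4 CPM in the mock libraries). The astrocyte gene Atp1b2 had 1017 and 1679 against 1247 and 1347 CPM, and the neuronal gene Gad1 56.9 and 159.6 against 40.9 and 24.1 CPM. Aspa, the enzyme that releases acetate for myelin lipids, had 143 and 219 against 105 and 118 CPM. edgeR called 0 of Sept4, Car2 and Aspa (adjusted p of 0.592, 0.373 and 0.358). Of these, 2 had an unadjusted edgeR p under 0.05, and DESeq2 and limma-voom called 0. Gad1 had a log2 fold of 1.67 (SE 0.51) and was called by DESeq2 (adjusted p of 0.0018), where 1.68% of all genes were called as higher. It was not called by edgeR (adjusted p of 0.272) or limma-voom (adjusted p of 0.298). For Gjb1 and Atp1b2 the diets overlapped, and edgeR, DESeq2 and limma-voom called neither. All genes named in this paragraph were picked after their values were seen.

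Markers of precursors and newly formed oligodendrocytes took 0.00847% and 0.0132% of counts in cuprizone and 0.0130% and 0.0146% in mock libraries, which overlapped. Of these 7 markers 5 had negative and 2 positive folds, and edgeR and limma-voom called 0. The gene Pdgfra, picked after its values were seen, was the 1 marker with an unadjusted edgeR p under 0.05 and the 1 that DESeq2 called, where 2.88% of all genes were called as lower. Pdgfra, the growth factor receptor of precursors, had 14.3 and 20.1 CPM against 39.9 and 35.9 CPM, a log2 fold of -1.21 (SE 0.30) with an edgeR adjusted p of 0.214, a DESeq2 adjusted p of 0.0220 and a limma-voom adjusted p of 0.153.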
